A study of Gallus gallus with 3 samples.

Results

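The genes described here are 10 transcripts of macrophages and dendritic cells, CSF1R, MARCO, C1QA, C1QB, C1QC, LY86, CYBB, FLT3, XCR1 and MRC1L-B, out of 15675 genes with values in the deposited table. They were chosen by name, 9 by their symbol and MRC1L-B through the symbol MMR1L4, since RefSeq's gene table for the chicken assembly GRCg7b gives the 2 names as synonyms. The tissue was mucosa of the jejunum from breeder hens of the Leuang Hang Kao chicken, 28 weeks old and kept at a thermoneutral 23 °C. RNA of 12 such hens had been combined into 3 pools of 4 hens, here called control pools 1, 2 and 3, and each pool gave a library. The study set these hens against hens exposed to acute heat, which were not analysed here. With 1 group there is no contrast between conditions, and the data show how abundant these genes were in the resting mucosa and how much they varied between pools of that group. Values are FPKM, a fragment count divided by transcript length and by library size, so levels of different genes are compared per length. Means are given ± SD over the pools (n = 3), which is the spread between pools of RNA and not between hens.

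Macrophages and dendritic cells lie in the lamina propria below the gut epithelium, where macrophages clear dying cells and microbes and dendritic cells carry antigen to lymphocytes. Macrophages depend on the receptor CSF1R and its ligands CSF1 and IL34, and dendritic cells on the related receptor FLT3. C1q, built from the chains A, B and C, is the recognition unit of the classical complement pathway and, unlike most complement proteins, is made largely by macrophages and dendritic cells. In bulk RNA, fewer cells of a type and less RNA per cell cannot be told apart.

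The chains of C1q were the most abundant of the 10 genes, and the levels fell into 4 tiers whose values did not overlap. C1QC at 47.6 ± 11.0 FPKM, C1QA at 47.1 ± 7.32 and C1QB at 37.0 ± 5.57 formed the first tier. LY86 at 13.4 ± 0.763, CSF1R at 10.5 ± 2.74, CYBB at 6.42 ± 1.77 and MARCO at 4.35 ± 0.921 formed the second. The dendritic cell receptors XCR1 at 1.37 ± 1.05 and FLT3 at 1.15 ± 0.299 formed the third, and MRC1L-B stood alone at 0.163 ± 0.0757. Genes whose mean reached 1 FPKM numbered 11570 and are called detected genes below. Among them C1QC lay at percentile 80.8, CSF1R at 44.5, MARCO at 22.6 and FLT3 at 1.62. The highest value of LY86 was 14.31, below the lowest of C1QB at 31.38, and the highest of XCR1 was 2.55, below the lowest of MARCO at 3.29. Within a tier, each gene's values overlapped those of its neighbour in the order. The order from LY86 to MARCO nevertheless held inside each of the 3 pools, whereas that of C1QC and C1QA and that of XCR1 and FLT3 changed from pool to pool.

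**Figure D1:**
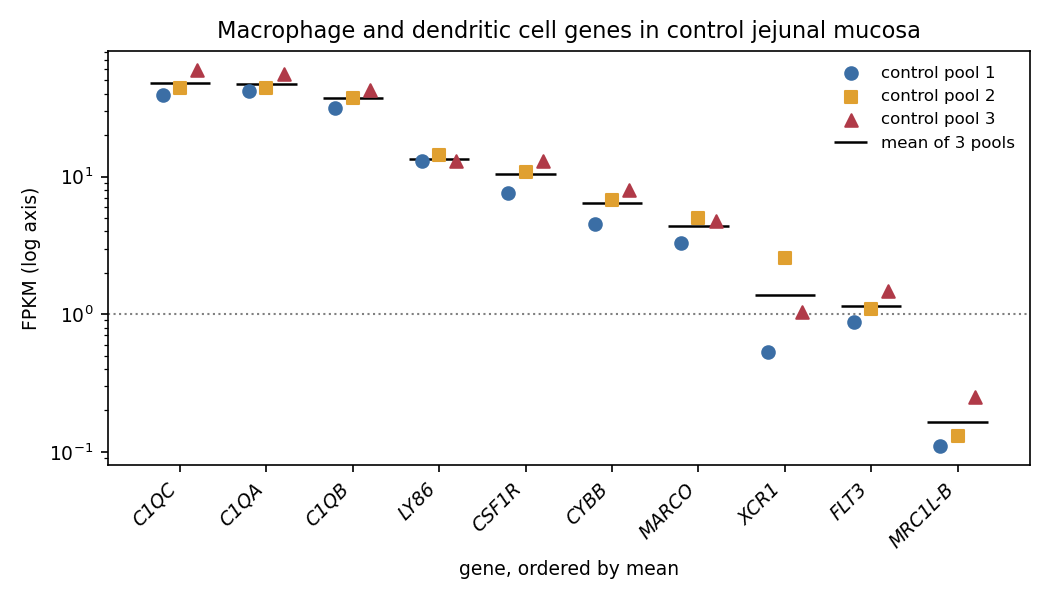
FPKM of each of the 10 genes on a log axis, with a point for each control pool and a bar for the mean of 3 pools. The dotted line marks 1 FPKM, and the C1q chains lie between 31.38 and 59.87 while MRC1L-B does not exceed 0.25.

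C1q, whose collagen-like stalk binds the proteases C1r and C1s, showed nearly balanced chains. C1QA was at 41.72, 44.13 and 55.43 FPKM in pools 1, 2 and 3. C1QB was at 31.38, 37.04 and 42.51, and C1QC at 38.82, 44.10 and 59.87. All 3 chains were lowest in pool 1 and highest in pool 3, a pattern that 39.0% of detected genes had. Pool 3 exceeded pool 1 by 1.33, 1.35 and 1.54 times for C1QA, C1QB and C1QC. C1QA was instead lowest in pool 2 when libraries were rescaled by the median of ratios. C1QA and C1QC differed by 0.00 ± 0.11 on the log2(FPKM + 1) scale, with C1QA higher in pools 1 and 2 and lower in pool 3. C1QB was the lowest chain in every pool, below C1QC by a difference of -0.34 ± 0.13. In the GRCg7b gene table C1QB, C1QC and C1QA follow each other with no other gene between them, on a different build from the GRCg6a that the submitters' processing notes name. Together the chains held 79.0%, 75.5% and 79.1% of the summed FPKM of the 10 genes in pools 1, 2 and 3.

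Of the proteases that C1q activates, C1R was at 15.51, 18.31 and 21.04 FPKM and C1S at 21.93, 21.48 and 27.45, each lower than every C1q chain in each pool. C4, the first substrate of C1s, ran the other way from the C1q chains in its order over pools, at 18.02, 16.90 and 8.87. It was lowest in pool 3, as were 3194 of 11570 detected genes. A separate entry, C4A, was under 1 FPKM, at 0.01, 0.06 and 0.07. C2, which C1s cleaves next, was at 2.34 ± 0.0781 and C3, on which the complement pathways converge, at 5.86 ± 1.66. SERPING1, the inhibitor of C1r and C1s, was at 22.7 ± 2.35. C5, C6, C7, C8A and C8B, of the terminal pathway, had means under 1 FPKM, whereas C8G was at 7.53 ± 2.85. The highest of the complement genes was CFD, the protease of the alternative pathway, at 1763.09, 2321.36 and 3529.73. It had the pool order of the C1q chains, as 39.0% of detected genes did, at a far higher level. C1QBP, a largely mitochondrial protein named for binding C1q, was at 97.7 ± 11.3 and C4BPA, which restrains C4b, at 45.7 ± 3.55. Of 23 listed complement genes with values, 15 were detected, and of these 9 were lowest in pool 1 and 7 highest in pool 3. Among all detected genes, 51.3% were lowest in pool 1 and 52.0% highest in pool 3, the shares against which such counts are read. With libraries rescaled by the median of ratios, a scaling that lowers those shares to 35.0% and 36.0%, the complement counts were 8 and 5.

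CSF1R, the receptor on which macrophage survival depends, was at 7.57, 10.88 and 13 FPKM in pools 1, 2 and 3. Pool 3 thus exceeded pool 1 by a ratio of 1.72, with pool 2 between them. Its ligand CSF1 was at 3.53, 3.90 and 6.77, below the receptor in every pool by 1.02 ± 0.23 on the log2(FPKM + 1) scale. The second ligand, IL34, was at 9.78, 8.72 and 16.55, above the receptor in pools 1 and 3 and below it in pool 2. Both ligands were highest in pool 3, as were 52.0% of detected genes.

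FLT3, the growth factor receptor of dendritic cells and their progenitors, was at 0.88, 1.09 and 1.47 FPKM. CSF1R exceeded it by 2.40 ± 0.18 on the log2(FPKM + 1) scale, or 8.60, 9.98 and 8.84 times in FPKM. CSF1R, FLT3, KIT and the platelet-derived growth factor receptors PDGFRA and PDGFRB belong to the same family of receptor tyrosine kinases. KIT, of mast cells and gut pacemaker cells, was at 1.27, 0.66 and 2.37. PDGFRB, of stromal cells, was at 2.49, 4.07 and 6.68, a wider range between pools than that of CSF1R, and is the next gene to CSF1R in the GRCg7b table. The ligand gene FLT3LG was not analysed here.

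XCR1, a chemokine receptor that in mammals marks the dendritic cells that cross-present antigen, was at 0.53, 2.55 and 1.03 FPKM. It had the widest spread of the 10 genes, with a ratio of 4.81 between pools 2 and 1, and it counted as detected only through pool 2. Its range of 1.21 on the log2(FPKM + 1) scale was the only one over 1 among the 9 detected genes of the 10, while 7.06% of all detected genes had a range over 1. At such levels few fragments lie behind a value, and the depth of these libraries is unknown. FLT3 exceeded XCR1 in pools 1 and 3 and fell short of it in pool 2. XCL1, the ligand of XCR1 and a product of lymphocytes, was at 39.37, 33.83 and 38.58, far above its receptor in each pool. The order of the pools for XCR1 was not shared by FLT3.

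Genes of dendritic cell development and function were mostly more abundant than the receptors, but many are also active in other cells. IRF8, a transcription factor of dendritic cells that B cells use as well, was at 135.83, 134.34 and 153.18 FPKM, BATF3 at 49.28, 48.54 and 38.61, and ID2, common to many cell types, at 258 ± 12.1. ZBTB46, which in mammals marks conventional dendritic cells, was at 3.32, 3.88 and 5.06. It had the pool order of FLT3, as 39.0% of detected genes did, and FLT3 counted as detected only through pool 3. CADM1, an adhesion protein of cross-presenting dendritic cells, was at 20.73, 23.18 and 29.64, and DNASE1L3, a secreted nuclease, at 22.37, 31.62 and 35.25. CD74, the invariant chain of class II molecules, led the list at 3008 ± 67.0, and the chemokine CCL17 varied most, at 18.50, 15.89 and 45.11. CCR7, which guides dendritic cells to lymphoid tissue, was at 2.93 ± 0.348. LAMP3 and IL12B, of activated dendritic cells, had means of 0.147 and 0.0367. In the list of conventional dendritic cell genes, which leaves out these transcription factors, 15 of 20 with values were detected. Of the 15, 5 were lowest in pool 1 and 9 highest in pool 3, against 51.3% and 52.0% of all detected genes. The rescaling gave 5 and 7, against 35.0% and 36.0%.

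MARCO, a scavenger receptor of macrophages that binds bacteria, was at 3.29, 4.98 and 4.77 FPKM. It was lower in pool 1 than in the other pools, which were close to each other. MRC1L-B, a mannose receptor family protein that is the target of the chicken macrophage antibody KUL01, was at 0.11, 0.13 and 0.25. CSF1R was 68.8, 83.7 and 52.0 times as high, so the transcript of this much used surface marker was close to the lower limit of the table, which gives 2 decimals. Of the other mannose receptor genes, MRC1 was at 0.42, 0.33 and 0.69, MMR1L3 at 0.04, 0.02 and 0.09 and MMR1L1 at 0.02, 0.02 and 0.04, so that these 3 were below 1 FPKM as well. Whether fragments shared between these family members were lost or divided in counting was not tested. The related MRC2, a collagen receptor of stromal cells, was at 2.69, 4.58 and 7.68, and LY75, a receptor of dendritic cells and lymphocytes, at 7.34, 5.90 and 10.51.

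Other clearance receptors were unevenly represented. CD163, the haemoglobin scavenger receptor of macrophages, was at 0.25, 0.14 and 0.31 FPKM. TIMD4, which binds phosphatidylserine on dying cells, was at 14.47, 12.64 and 18.95, and MERTK, a kinase receptor for the same cargo, at 3.62, 4.52 and 5.91. STAB1, a scavenger receptor of macrophages and endothelium, was at 3.38, 4.01 and 5.95. SCARB1, the lipoprotein receptor, which enterocytes also express, was highest of the list at 240 ± 35.8. Of 19 listed receptors and bridging proteins with values, 13 were detected. Of the 13, 4 were lowest in pool 1 and 8 highest in pool 3, against 51.3% and 52.0% of all detected genes. After the rescaling the counts were again 4 and 8, but the shares of all detected genes were 35.0% and 36.0%.

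LY86, also called MD-1, is a secreted protein that pairs with CD180, a Toll-like receptor homologue of B cells and macrophages. It was at 12.92, 14.31 and 13.07 FPKM, the narrowest relative spread of the 10 genes, with a coefficient of variation of 5.68%. Its partner CD180 was at 0.28, 0.25 and 0.37, so that LY86 was 46.1, 57.2 and 35.3 times as high. LY96, the corresponding partner of TLR4, was likewise above its receptor, at 18.2 ± 2.09 against 1.74 ± 0.146. CD14, the lipopolysaccharide co-receptor, was at 0.66, 0.61 and 0.49. Of the 10 partners of LY86 and TLR4 in the list, 8 were detected. Of the 8, 3 were lowest in pool 1 and 4 highest in pool 3, against 51.3% and 52.0% of all detected genes. The rescaling gave 2 and 2, against 35.0% and 36.0%.

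CYBB, the catalytic subunit of the phagocyte NADPH oxidase, was at 4.51, 6.72 and 8.02 FPKM. It had the pool order of CSF1R, as 39.0% of detected genes did, with a ratio of 1.78 between pools 3 and 1. CYBA, its membrane partner, which also serves other oxidases, was at 33.53, 35.17 and 38.07, above CYBB in every pool. The cytosolic subunits NCF1, at 8.88, 7.53 and 9.46, and NCF4, at 3.46, 2.63 and 2.78, were lowest in pool 2. NOX1, the oxidase of the gut epithelium in mammals, was at 87.8 ± 4.02, and its organiser NOXO1 varied, at 8.78, 18.23 and 9.69. Of 14 oxidase genes with values, 11 were detected. Of the 11, 5 were lowest in pool 1 and 7 highest in pool 3, against 51.3% and 52.0% of all detected genes. The rescaling gave 3 and 3, against 35.0% and 36.0%.

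As deposited, all 10 genes were lowest in pool 1, where 51.3% of detected genes were lowest, but C1QA and LY86 were not when libraries were rescaled by the median of ratios. CSF1R, CYBB, FLT3 and the C1q chains, with MRC1L-B under 1 FPKM, were highest in pool 3, while MARCO, LY86 and XCR1 were highest in pool 2. Among all detected genes, 2662 of 11570 were highest in pool 2. XCR1 counted as detected only through its value in pool 2, so its place there follows from the filter. Of the 9 detected genes of the 10, 6 were highest in pool 3 against 52.0% of all detected genes. The same 6 were both lowest in pool 1 and highest in pool 3, against 39.0%. FLT3 counted as detected only through its value in pool 3, so its place in both counts follows from the filter. Over the 6 genes whose mean reached 5 FPKM, 5 were highest in pool 3, but the share of all genes at that minimum was not taken. The rescaling moved log2 FPKM, before 1 is added, by 0.09 in pool 1 and -0.10 in pool 3. Under it, 7 of the 9 detected genes of the 10 were lowest in pool 1 against 35.0% of detected genes. It left 6 highest in pool 3 against 36.0%, and put C1QA lowest in pool 2 and LY86 in pool 3. The shift of a gene in a pool is its log2(FPKM + 1) there minus the mean of the other 2 pools. Its median over the 9 genes was -0.40, 0.12 and 0.32 in pools 1, 2 and 3, beside -0.10, 0.01 and 0.10 over all detected genes, and -0.25, 0.12 and 0.22 after the rescaling. The value in pool 2 turned to -0.22 when pool 1 was left out. After the rescaling, a shift also takes in the factors of the other 2 pools. These medians, like the 7 genes lowest in pool 1, include FLT3 and XCR1, detected only through pools 3 and 2. Over the 6 genes whose mean reached 5 FPKM, which leave out both, the medians as deposited were -0.36, 0.07 and 0.41. The medians over all genes at that minimum were not taken. CYBB and CSF1R had the most negative shifts in pool 1 after XCR1, at -0.60 and -0.59, and C1QC the highest in pool 3, at 0.52. LY86 stood at -0.08, 0.13 and -0.05.

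**Figure D2:**
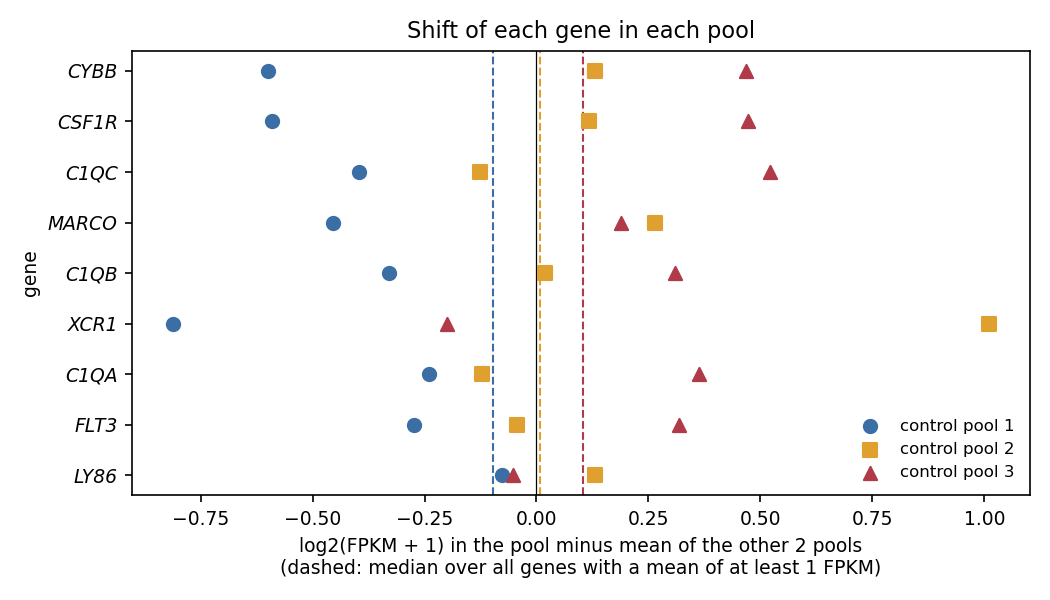
Shift of each of the 9 detected macrophage and dendritic cell genes in each control pool, on the log2(FPKM + 1) scale, with the median over all genes as dashed lines. CYBB and CSF1R run from -0.60 and -0.59 in pool 1 to 0.47 in pool 3, LY86 keeps close to 0 and XCR1 departs in pool 2 at 1.01.

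Set against CSF1R within each pool, some of the 10 genes kept their proportion and others did not. The ratio of CYBB to CSF1R was 0.596, 0.618 and 0.617 in pools 1, 2 and 3, and that of FLT3 to CSF1R was 0.116, 0.1002 and 0.113. The ratio of MARCO to CSF1R was 0.435, 0.458 and 0.367. LY86 was 1.71, 1.32 and 1.01 times CSF1R. The summed C1q chains were 14.8, 11.5 and 12.1 times CSF1R, highest in the pool where each chain was lowest. XCR1 was 0.0700, 0.234 and 0.0792 of CSF1R. These ratios share their denominator, and with 3 pools they are given as values only.

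**Figure D3:**
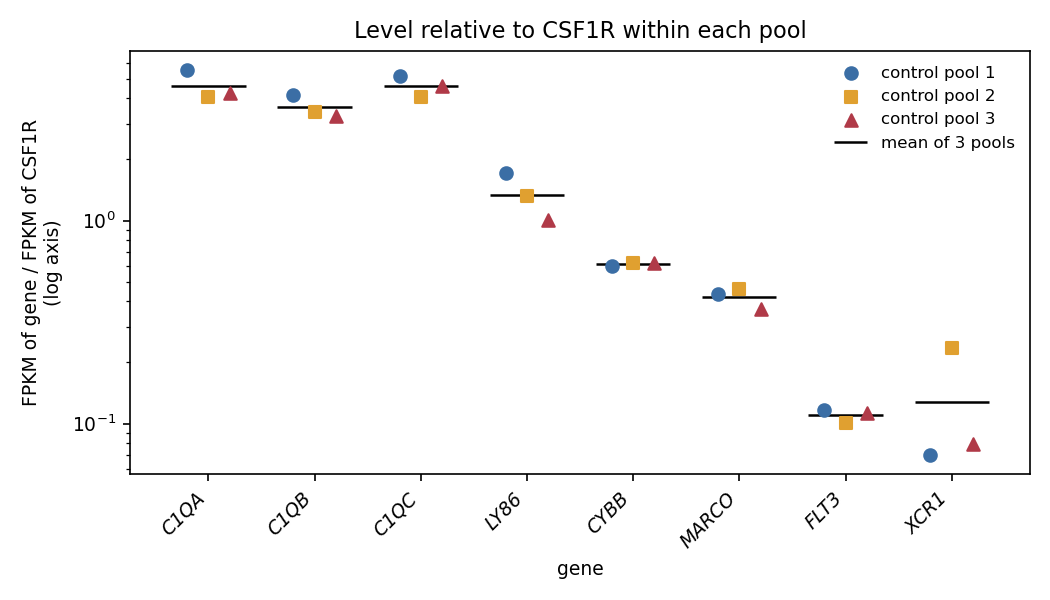
FPKM of 8 genes divided by the FPKM of CSF1R in the same pool, on a log axis, with a point for each control pool and a bar for the mean of 3 pools. The points of CYBB, between 0.596 and 0.618, nearly coincide, while those of LY86 spread from 1.01 to 1.71 and those of XCR1 from 0.0700 to 0.234.

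Markers of other cells moved between the same pools, and their part in the levels described here was not tested. All 10 measured pan-leukocyte genes had their minimum in pool 1 and their maximum in pool 3, as 39.0% of detected genes did. After the rescaling 6 were lowest in pool 1 and 9 highest in pool 3, against 35.0% and 36.0% of detected genes. The median shifts of the pan-leukocyte genes were -0.27, -0.09 and 0.36, or -0.13, -0.09 and 0.22 after the rescaling. Among these, PTPRC, the CD45 antigen, was at 39.03, 50.59 and 62.46 FPKM. CSF1R was 0.194, 0.215 and 0.208 of PTPRC, FLT3 was 0.0225, 0.0215 and 0.0235, and LY86 was 0.331, 0.283 and 0.209. T and NK lymphocyte markers had median shifts of -0.36, -0.04 and 0.40 and B and plasma cell markers -0.02, -0.19 and 0.42. After the rescaling these were -0.23, -0.04 and 0.26 and 0.11, -0.19 and 0.30, so that the sign of the B and plasma cell shift in pool 1 turned. Markers of tissue below the epithelium moved further. Smooth muscle, fibroblast and endothelial markers had median shifts of -1.38, -1.16 and -0.98 in pool 1 and 1.23, 1.12 and 0.89 in pool 3. The summed level of the 13 fibroblast and stroma markers was 273, 518 and 849 FPKM, and that of the 10 genes described here 142, 166 and 199. Enterocyte markers ran the other way, with median shifts of 0.54, 0.15 and -0.87. None of 15 was lowest in pool 1 or highest in pool 3, against 51.3% and 52.0% of all detected genes. After the rescaling, enterocyte markers were at 0.69 in pool 1 and -1.01 in pool 3. Smooth muscle markers were then at -1.25 and 1.10, fibroblast markers at -1.02 and 0.996 and endothelial markers at -0.86 and 0.76.

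**Figure D4:**
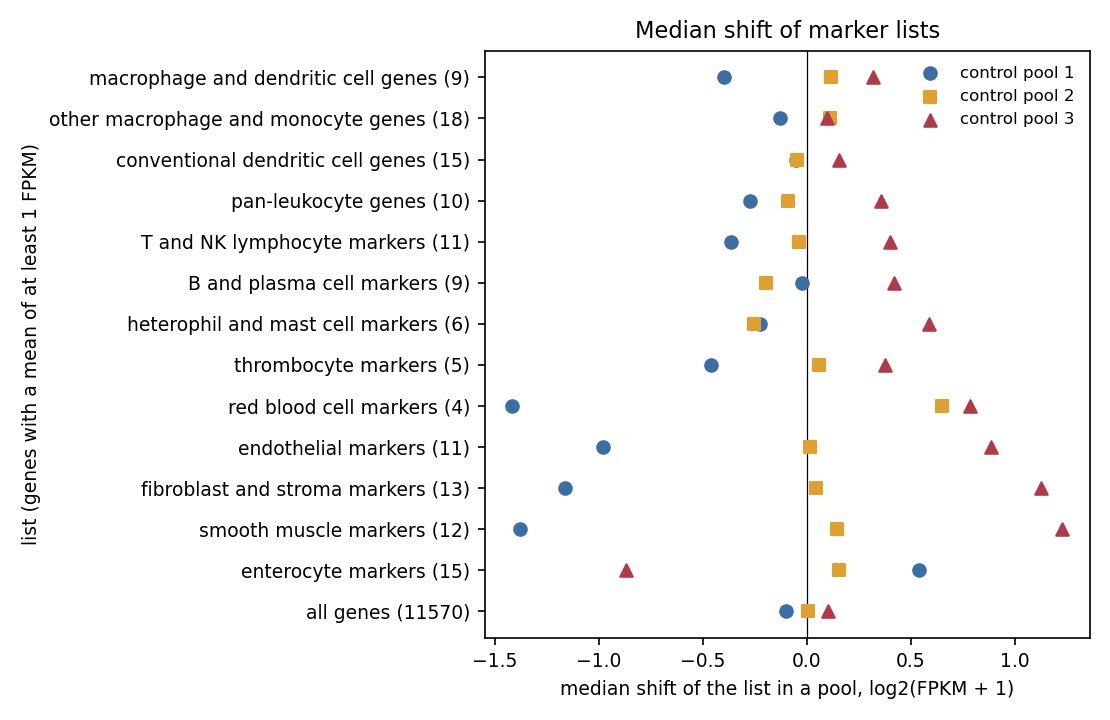
Median shift of each list in each control pool on the log2(FPKM + 1) scale, with the number of detected genes in brackets. The macrophage and dendritic cell genes lie at -0.40 and 0.32 in pools 1 and 3. The 0.32 is the value of FLT3, detected only through pool 3. Pan-leukocyte genes (-0.27 and 0.36) and thrombocyte (-0.46 and 0.38) and T and NK cell (-0.36 and 0.40) markers are near them. Of the thrombocyte genes, ITGB3 and GP1BB were detected only through pools 3 and 2. After median-of-ratios rescaling, not drawn, the macrophage and dendritic cell genes are at -0.25 and 0.22. Pan-leukocyte genes are then at -0.13 and 0.22, thrombocyte at -0.38 and 0.26 and T and NK cell markers at -0.23 and 0.26. The other macrophage and monocyte genes (-0.13 and 0.10) are farther from them than these 3 lists, and smooth muscle markers (-1.38 and 1.23) farther still. Conventional dendritic cell genes lie at -0.05 and 0.15.

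Other macrophage and monocyte genes did not move together. MPEG1, the pore-forming perforin-2 of phagocytes, was at 23.69, 35.87 and 45.10 FPKM, VSIG4, a complement receptor of tissue macrophages, at 6.40, 8.92 and 9.94, and the chemokine receptor CCR2 at 11.58, 16.21 and 19.58. These 3 shared the pool order of CSF1R, as 39.0% of detected genes did. C3AR1, the receptor for C3a, did so as well, at 11.71, 12.84 and 14.54, and so did SPI1, the transcription factor PU.1 that drives the myeloid lineage, at 19.35, 21.55 and 24.52. The haem oxygenase HMOX1 was at 57.09, 53.89 and 28.18, lowest in pool 3. The most abundant genes of the list were LGALS3 at 1114 ± 304, CTSB at 282 ± 65.8, LGMN at 265 ± 30.6 and CTSS at 234 ± 17.6. They encode a galectin and lysosomal proteases that are also made by other cells. All 4 were lowest in pool 3, as were 3194 of 11570 detected genes. TREM2, a receptor of lipid-handling macrophages, was at 0.21 in pool 1 and had a listed value of 0 in pools 2 and 3. Of 22 such genes with values, 18 were detected. Of these, 10 were lowest in pool 1 and 9 highest in pool 3, close to the 51.3% and 52.0% of all detected genes. The median shifts were -0.13, 0.11 and 0.10, or 0.01, 0.11 and -0.03 after the rescaling. Those of the conventional dendritic cell genes were -0.05, -0.05 and 0.15, or 0.06, -0.05 and 0.05 after the rescaling. Ligands, growth factor receptors and transcription factors that were detected numbered 20. Of the 20, 10 were lowest in pool 1 and 15 highest in pool 3, against 51.3% and 52.0% of all detected genes. The rescaling gave 8 and 12, against 35.0% and 36.0%. ZEB2 had the widest range of these 20, at 2.43, 4.44 and 8.84.

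The median profile of the detected genes of the 10 over the pools resembled that of many other genes. The median deviation from the mean over pools, for the 9 detected ones, was -0.26, 0.08 and 0.21 on the log2 scale. Of 8210 other named genes whose mean reached 5 FPKM, 426 lay within a Euclidean distance of 0.1 from it over the 3 pools. The nearest were C15H12ORF65, RPA2, RCC1, ITPR2 and RANBP9, at distances of 0.0152 to 0.0168. CSF1R itself lay at 0.165, with 1142 of those genes nearer, and LY86 at 0.326. Of the 10 genes, C1QB lay within 0.1 of the median profile, at 0.0791, and the rest did not. The value of that profile in pool 3 is the deviation of FLT3. FLT3 and XCR1 counted as detected only through pools 3 and 2, so the profile and the 426 genes near it depend in part on the filter. A profile without FLT3 and XCR1 was not taken. Which cells express the 426 genes was not examined.

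Within pools, 11 of the 14 gene pairs compared kept the same direction in all 3. The exceptions were C1QA with C1QC, FLT3 with XCR1, and CSF1R with IL34. The exact two-sided sign-flip permutation test cannot give a p below 0.25 with 3 pools, which became 0.318 after Benjamini-Hochberg adjustment across the 14 pairs. No pair could thus reach significance in this design.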

How the data were processed

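Jejunal mucosa RNA was pooled from 4 hens per library, per the labels' protocols. Tools named in the submitters' processing notes, without role or order, are HISAT2 2.0.1, DESeq2, HTSeq 0.6.1 and cutadapt 1.9.1, with build GRCg6a, and strand use in counting is not given in the sources used here. The authors deposited FPKM to 2 decimals for each pool, per the file headers, and these were used as deposited. The summed FPKM were 939772, 948742 and 936084 in pools 1, 2 and 3. The authors also deposited estimated counts, which were unrelated to the FPKM beside them (r across genes of 0.009, 0.006 and 0.005 by Pearson), so they gave no value here, depth is unknown and no counting interval is given. The labels hold no sample for 6 more columns, which were left out.

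Differences were taken on a log2(FPKM + 1) scale, where changes of low genes come out too small, and a gene counted as detected, for list summaries and background, when its mean reached 1 FPKM. With 1 group no model across genes was fitted. The 10 genes and the 17 other lists were chosen with earlier results of these data known. The lists name 281 symbols, of which 240 were found as written, 3 through a synonym, and the rest were not analysed here. Named genes were all 10 members, both genes of each pair, up to 4 with the highest mean and 2 with the widest range in each list, and the 5 nearest in profile. Others, such as SPI1, C4, KIT, PDGFRB, ZBTB46, TIMD4, CD163, VSIG4, C3AR1 and the mannose receptor family, were named after their values were seen. Values of a few listed genes and of 1 of the 14 pairs are not reported here. Alternatives were a pseudocount of 0.1, other minimum values, equal sums, median-of-ratios scaling, a mean over genes, and each pool left out. Software was matplotlib 3.10.9, SciPy 1.17.1, pandas 2.3.3 and numpy 2.4.6 under Python 3.11.15.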

Additional observations from a re-analysis of the deposited data

How the results depend on the processing

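Of 47 recalculations of the list's level, shifts and counts, 42 stayed within the spread between pools or within 1.5 times the count. That spread was the SD over pools of the genes' own median, 2.74 FPKM for the level and 0.245 on the log2 scale for shifts. For shifts it is set by the differences being checked, so the count is no test of their stability. With a minimum mean of 5 FPKM the median level of the genes was 25.2 FPKM in place of 10.5, since 6 genes were left, and 0 of them had a range over 1 in place of 1. Leaving out a pool, the number with a range over 1 was 0 to 1, and it was 0 without pool 1 or pool 2, which give XCR1 its range. The median shift in pool 2, 0.12 with every pool, ran from -0.22 without pool 1 to 0.35 without pool 3. The shifts in pools 1 and 3 kept their direction under every alternative run, from -0.48 to -0.25 and from 0.22 to 0.43. The smallest in pool 1 came with median-of-ratios scaling. That scaling moved log2 FPKM, before 1 is added, by 0.09 in pool 1 and -0.10 in pool 3. A shift also takes in the scaling of the other 2 pools. Of 56 recalculated pair differences 54 kept their direction: C1QA minus C1QC ran from -0.054 without pool 1 to 0.051 without pool 3, and FLT3 minus XCR1 from -0.24 without pool 1 to 0.29 without pool 2. No paired analysis was possible because the samples form 1 group, and only genes were paired, within pools. Values of XCR1, FLT3 and MRC1L-B, near or below 1 FPKM, are the least precise.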

Other observations

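Markers of other blood cells were also measured beside the macrophage and dendritic cell genes. Of 9 heterophil and mast cell genes in the table, 6 had a mean of at least 1 FPKM. Myeloperoxidase, MPO, of granulocyte granules, was at 0.24, 0.09 and 0.53 FPKM, and HDC, the histamine-forming enzyme, at 3.38, 1.82 and 10.74. LYG2, a goose-type lysozyme, was the highest of the list at 39.07, 28.03 and 27.43. S100A9, a calcium-binding protein of granulocytes, was at 1.66, 1.11 and 0.53. The cathelicidin CATHL3, with a mean under 1 FPKM, was at 1.30, 0.82 and 0.59. LYG2 and S100A9 were highest in pool 1, as were 2858 of 11570 detected genes, and so was CATHL3, which did not count as detected. S100A9 counted as detected only through its value in pool 1, so its place there follows from the filter. CSF3R, the receptor of granulocyte colony-stimulating factor, was at 3.41, 5.15 and 5.78, lowest in pool 1.

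Of 8 thrombocyte genes 5 had a mean of at least 1 FPKM, led by TUBB1, the thrombocyte tubulin, at 6.20, 4.63 and 5.87. The integrin ITGA2B was at 0.10, 0.06 and 0.29 FPKM. The red blood cell genes HBA1 and HBBA, which encode haemoglobin chains, were at 28.64, 74.91 and 80.01 and at 23.87, 65.38 and 69.48. The haemoglobin gene HBAD was at 4.64, 17.34 and 11.54. All 3 were lowest in pool 1, as were 51.3% of detected genes, and HBAD, unlike HBA1 and HBBA, was highest in pool 2.

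FCER1G, the signalling chain of Fc receptors in myeloid and mast cells, was at 23.26, 59.05 and 8.56 FPKM. Its range of 2.65 on the log2(FPKM + 1) scale was the widest in the macrophage and monocyte list. Like XCR1, LY86 and MARCO it was highest in pool 2, as were 2662 of 11570 detected genes.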
